A study of Mus musculus with 10 samples.

Results

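The early response of mouse bone-marrow-derived macrophages to a low dose of Kdo2-lipid A was taken from 4 of the 10 polyadenylated RNA libraries of a dose and time series. Members were chosen by label: the 2 libraries of cells given 0.03 nM for 1 h, and the 2 libraries of untreated cells, paired by experiment number. All cells came from C57BL/6J marrow and were grown in macrophage colony-stimulating factor. They fell into 5 groups of 2 libraries, 1 from each of 2 experiments described as independent: 0.03 nM Kdo2-lipid A for 1 h, the same dose for 2 h, 10 nM for 1 h, 10 nM for 2 h, and untreated cells, which are labelled as harvested at 0 h. There was no untreated group at 1 h, so the ligand and the hour of incubation cannot be told apart in the comparison with untreated cells. The labels give no sex or age for the animals and do not say whether marrow was pooled. Treated and untreated libraries 1 and 2 below are those of 0.03 nM 1 h and of untreated cells in experiments 1 and 2.

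Kdo2-lipid A is the part of bacterial lipopolysaccharide that binds Toll-like receptor 4 (TLR4) with its partner MD-2. In macrophages the receptor signals through the adaptors MyD88 and TRIF to kinases that free NF-kB from its inhibitors and activate the MAP kinases. Genes that need no new protein respond first: immediate-early transcription factors, NF-kB inhibitors, phosphatases and RNA-decay factors that limit the response, and the first cytokines and chemokines. Genes driven by secreted interferon-beta usually follow later.

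Of 23284 genes in the count table, 12918 had enough counts to be tested and 6164 had no count in any library. The 0.03 nM 1 h libraries held 36249662 and 36679774 counts, and the untreated libraries 36676424 and 35989957; the other 6 ran from 33179599 to 42167096. Macrophage identity genes were high and near level, with the 24 listed markers summing to 44253 and 42569 CPM (counts per 1000000 counts of the TMM-scaled library) at 0.03 nM 1 h, against 46178 and 43465 CPM in untreated cells. Of 10 markers of T and NK cells, 4 had 0 counts in all 4 libraries (Cd3d, Ncr1, Gzma and Nkg7), 4 stayed under 10 counts, Lck had 14 and 5 counts at 0.03 nM 1 h, against 16 and 12 in untreated cells, and Cd4 had 1362 and 1477 counts at 0.03 nM 1 h, against 1364 and 1416 in untreated cells. Of 8 markers of mast cells and basophils, the 3 proteases Mcpt4, Tpsb2 and Tpsab1 had 0 counts in all 4 libraries and the other 5 had at most 17. Other lists were not empty. The 14 dendritic cell markers summed to 2992 and 2765 CPM at 0.03 nM 1 h, against 2866 and 2615 CPM in untreated cells. The 5 B cell markers tested summed to 143 and 137 CPM at 0.03 nM 1 h, against 140 and 140 CPM in untreated cells. Neutrophil and stromal sums are given below. In these bulk libraries, fewer cells of a type and less RNA per cell cannot be told apart. The p-values rest on 2 experiments and on the spread of all 10 libraries.

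After 1 h at 0.03 nM, 220 of 12918 genes differed from untreated cells at an adjusted p below 0.05 (1.7%; edgeR quasi-likelihood test with the experiment as a block), 207 of them higher (1.6%) and 13 lower (0.101%). The response was thus mostly upward. Among the rises, 88 were at least 2-fold, 29 at least 4-fold, 15 at least 8-fold and 4 at least 16-fold, while 3 of the falls reached 2-fold. At an unadjusted p below 0.05 there were 1127 genes. The median log2 fold change was 0.86 over the called rises, -0.54 over the called falls and -0.0017 over all genes tested. Every called gene differed in the same direction in both experiments. The calls were made on these same libraries, which favours a shared sign and the separation of libraries given next, so neither is separate support. Both 0.03 nM 1 h libraries lay above both untreated libraries for 204 of the 207 rises, and below for 13 of the 13 falls, against 20.3% and 20.4% of all genes tested.

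How many genes were called depended on the libraries that shared the estimate of spread. The fit without the 0.03 nM 2 h group, added after the data were seen, called 599 genes (4.67% of those it tested; 472 up, 3.68%, and 127 down), 178 of them among the 220. A fit to the 4 libraries alone, with 1 residual degree of freedom, called 1159 (9.29%; 806 up, 353 down). For the gene lists below, the count without the 0.03 nM 2 h group follows the main one. It is not given for the interferon-stimulated, LXR, cell cycle, stress and microRNA lists or for markers of other cell types. List counts are to be read beside the shares of all genes tested. These were 1.6% up and 0.101% down in the main fit, and 3.68% up without that group. Leaving out 1 library gave 96 to 596 calls: 105 without treated library 2, 97 and 96 without untreated libraries 1 and 2, and 583 and 596 without the 0.03 nM 2 h libraries. Without the block, 198 genes were called, 187 of them shared. No called gene changed direction in any of these fits, and 65 were called in each fit that left out 1 library. Where leaving out a library ended the call on a named gene, the highest adjusted p over those fits is given in brackets after the libraries.

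**Figure D1:**
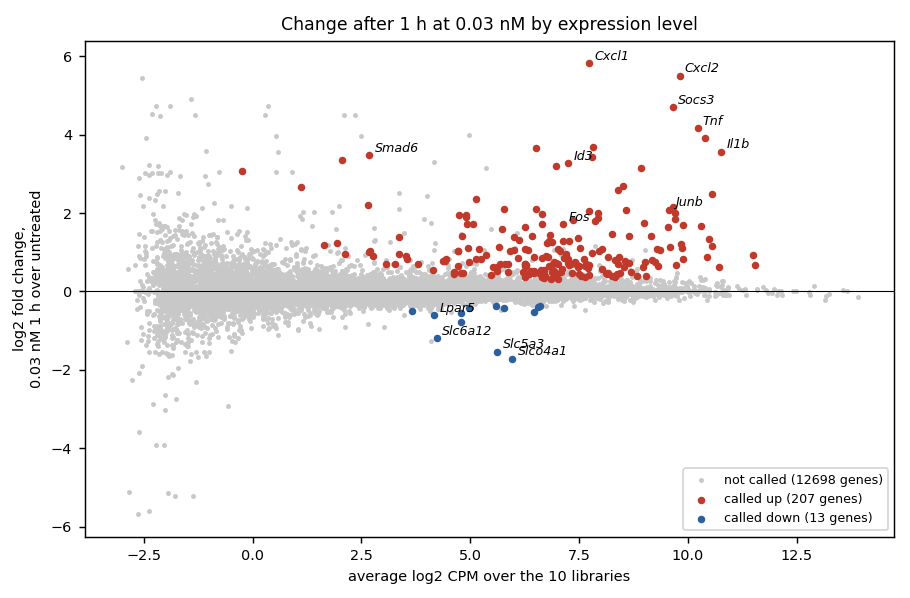
Log2 fold change of 0.03 nM 1 h over untreated (vertical axis) against average log2 CPM over the 10 libraries (horizontal axis), 1 point per tested gene, with the 207 called rises in red, the 13 called falls in blue and genes not called in grey. Cxcl1 and Cxcl2 stand at the top and Slco4a1 and Slc5a3 at the bottom of the called genes, and the rises far outnumber the falls.

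The promoters below are those of the 8 largest and the 2 lowest fold changes among called genes with an average of at least 1 log2 CPM, shown so that the windows with and without the NF-kB and TATA letters, both known from inducible inflammatory promoters, can be set side by side. They are RefSeq sequences on GRCm38.p6, 250 bases before to 50 bases after the gene's start, 5′ to 3′ on the gene's strand. Capitals mark a match to the NF-kB consensus, or the letters TATAAA. All motifs were searched on both strands. Maff is shown at the first of 3 listed starts, Slco4a1 at the first of 2, and Irg1 is listed under its RefSeq symbol Acod1. The windows are Cxcl1 at chr5:90890995-90891294, plus strand, Cxcl2 at chr5:90903649-90903948, plus strand, Socs3 at chr11:117969317-117969616, minus strand, Tnf at chr17:35201958-35202257, minus strand, Irg1 at chr14:103046762-103047061, plus strand, Dusp2 at chr2:127335909-127336208, plus strand, Maff at chr15:79346371-79346670, plus strand, Il1b at chr2:129371090-129371389, minus strand, Slco4a1 at chr2:180455995-180456294, plus strand and Slc5a3 at chr16:92058072-92058371, plus strand.
Cxcl1: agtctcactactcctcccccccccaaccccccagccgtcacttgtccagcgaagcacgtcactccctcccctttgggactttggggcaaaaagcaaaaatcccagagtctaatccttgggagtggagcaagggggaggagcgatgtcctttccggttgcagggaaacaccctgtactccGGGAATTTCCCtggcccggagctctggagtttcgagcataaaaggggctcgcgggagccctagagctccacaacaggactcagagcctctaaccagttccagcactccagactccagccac
Cxcl2: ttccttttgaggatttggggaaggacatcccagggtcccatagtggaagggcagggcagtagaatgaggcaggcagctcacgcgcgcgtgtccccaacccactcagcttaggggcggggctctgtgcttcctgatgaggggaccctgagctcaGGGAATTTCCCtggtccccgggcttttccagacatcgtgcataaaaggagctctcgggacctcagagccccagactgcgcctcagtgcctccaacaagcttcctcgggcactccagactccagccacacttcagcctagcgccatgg
Socs3: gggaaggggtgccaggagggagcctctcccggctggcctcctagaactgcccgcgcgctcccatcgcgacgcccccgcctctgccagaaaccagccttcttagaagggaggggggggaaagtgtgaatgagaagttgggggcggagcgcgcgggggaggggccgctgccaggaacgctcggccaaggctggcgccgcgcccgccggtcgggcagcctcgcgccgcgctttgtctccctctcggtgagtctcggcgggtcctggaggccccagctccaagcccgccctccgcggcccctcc
Tnf: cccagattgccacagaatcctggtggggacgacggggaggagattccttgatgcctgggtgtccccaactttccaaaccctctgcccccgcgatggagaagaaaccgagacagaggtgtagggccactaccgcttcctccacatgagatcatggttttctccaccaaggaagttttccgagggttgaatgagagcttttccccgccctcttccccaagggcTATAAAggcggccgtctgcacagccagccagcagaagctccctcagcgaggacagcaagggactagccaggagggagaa
Irg1: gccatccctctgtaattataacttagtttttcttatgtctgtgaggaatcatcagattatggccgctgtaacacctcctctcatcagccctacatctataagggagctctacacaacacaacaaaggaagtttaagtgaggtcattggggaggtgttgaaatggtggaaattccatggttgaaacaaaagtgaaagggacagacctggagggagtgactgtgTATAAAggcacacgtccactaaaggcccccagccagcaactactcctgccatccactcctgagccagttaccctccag
Dusp2: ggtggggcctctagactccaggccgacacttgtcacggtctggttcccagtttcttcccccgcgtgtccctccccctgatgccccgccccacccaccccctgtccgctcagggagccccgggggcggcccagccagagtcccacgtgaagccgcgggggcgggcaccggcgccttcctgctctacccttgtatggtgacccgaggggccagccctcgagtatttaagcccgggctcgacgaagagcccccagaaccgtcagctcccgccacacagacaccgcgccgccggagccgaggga
Maff: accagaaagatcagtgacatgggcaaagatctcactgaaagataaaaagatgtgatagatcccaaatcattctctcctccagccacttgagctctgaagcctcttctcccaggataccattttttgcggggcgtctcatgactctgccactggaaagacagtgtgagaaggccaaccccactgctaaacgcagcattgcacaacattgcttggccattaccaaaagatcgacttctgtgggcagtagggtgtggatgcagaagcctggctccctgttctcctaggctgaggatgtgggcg
Il1b: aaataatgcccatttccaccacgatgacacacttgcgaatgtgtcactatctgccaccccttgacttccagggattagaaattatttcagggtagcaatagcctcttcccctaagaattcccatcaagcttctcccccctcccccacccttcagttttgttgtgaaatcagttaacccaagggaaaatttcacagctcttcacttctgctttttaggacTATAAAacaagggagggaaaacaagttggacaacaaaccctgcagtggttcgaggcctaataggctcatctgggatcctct
Slco4a1: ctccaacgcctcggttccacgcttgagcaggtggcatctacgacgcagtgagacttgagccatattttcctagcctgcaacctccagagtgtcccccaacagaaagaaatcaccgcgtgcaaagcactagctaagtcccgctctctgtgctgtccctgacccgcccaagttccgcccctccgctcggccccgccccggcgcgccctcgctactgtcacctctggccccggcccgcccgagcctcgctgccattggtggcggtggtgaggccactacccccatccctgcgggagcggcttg
Slc5a3: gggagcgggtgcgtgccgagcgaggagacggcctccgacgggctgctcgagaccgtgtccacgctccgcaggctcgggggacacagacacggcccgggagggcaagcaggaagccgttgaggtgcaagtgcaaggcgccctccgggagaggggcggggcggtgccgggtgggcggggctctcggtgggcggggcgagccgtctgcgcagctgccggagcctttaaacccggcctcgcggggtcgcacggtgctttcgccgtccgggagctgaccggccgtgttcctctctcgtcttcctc

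The paired chemokine genes Cxcl1 and Cxcl2 each carried an NF-kB match, starting at -71 and -97 from the start of the gene and read on both strands of the same overlapping letters. Tnf, Irg1 and Il1b carried TATAAA at -29, -28 and -31. No window of Socs3, Dusp2, Maff, Slco4a1 or Slc5a3 held either set of letters, which says nothing of the factors at these genes. Over all genes with a listed promoter, the NF-kB consensus was found on either strand in 21.7% of the 161 called rises and in 27.3% of the 66 that rose at least 2-fold, against 10.1% of the 10129 tested genes and 8.18% of the 27025 promoters listed. TATAAA stood in 17.4% of the called rises and 24.2% of those at least 2-fold, against 7.27% of tested genes and 14.2% of all listed promoters. The AP-1 letters TGANTCA were in 6.21% and the serum response element (CArG box) in 3.11% of called rises, against 5.24% and 1.32% of tested genes. The cyclic AMP response element TGACGTCA was in 2.48% against 3.28%, and GGGCGG, the core bound by SP factors, in 63.4% against 64.1%. Of the 12 called falls with a promoter, 2 (16.7%) held the NF-kB consensus, too few to set against the share of tested genes.

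The 2 largest rises belonged to neutrophil-attracting chemokines. Cxcl1 (chromosome 5, 91320271 to 91322141 on mm9) had 12.8 and 12 CPM at 0.03 nM 1 h, against 0.167 and 0.265 CPM in untreated cells, a 56.5-fold rise (log2 fold change 5.82 ± 0.17, SE; adjusted p = 6.65e-08). Cxcl2 (chromosome 5, 91332925 to 91334964) had 50.8 and 77.7 CPM at 0.03 nM 1 h, against 1.12 and 1.69 CPM in untreated cells, a 45.4-fold rise (adjusted p = 4.46e-07). The groups are far apart for both genes, and Cxcl1 was almost silent in untreated cells at 7 and 11 counts. Of 11 CXC chemokines tested, 4 rose and none fell, against 1.6% and 0.101% of all genes tested. The list median was 0.36 on the log2 scale. Without the 0.03 nM 2 h group, 4 of 11 were up. Cxcl3, another neutrophil attractant, had 0.458 and 0.958 CPM at 0.03 nM 1 h, against 0.191 and 0.169 CPM in untreated cells, and Cxcl10, an interferon-responsive T cell attractant, had 33 and 74.2 CPM at 0.03 nM 1 h, against 16.6 and 15.8 CPM in untreated cells. Both were higher in experiment 2 than in experiment 1 after treatment: Cxcl3 rose 3.88-fold, or 2.57-fold without treated library 2, and Cxcl10 rose 3.2-fold, or 2.03-fold without it. Calls were lost on Cxcl3 without treated library 2, either untreated library or any 10 nM library (0.362) and Cxcl10 without either untreated library or either 0.03 nM 2 h library (0.341). Of the remaining alternatives, the call was lost on Cxcl10 without the block (adjusted p = 0.108) and under no filter on low counts, and on Cxcl3 under limma-voom (adjusted p = 0.167) and under limma on rlog values (adjusted p = 0.0704).

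Among 12 CC chemokines, which attract monocytes and lymphocytes, 3 rose and none fell (median 0.47). Without the 0.03 nM 2 h group, 1 of 12 was up, where 3.68% of all genes were, and a count this small tells nothing of the list. Ccl4 had 20.4 and 35 CPM at 0.03 nM 1 h, against 7.07 and 8.15 CPM in untreated cells, a 3.6-fold rise, Ccl3 had 37.7 and 54.9 CPM in treated, against 17.6 and 16.6 CPM in untreated cells (2.68-fold), and Ccl2 had 4.51 and 7.31 CPM in treated, against 1.91 and 2.43 CPM in untreated cells (2.71-fold). Both treated libraries lay above both untreated libraries for these 3 genes, as for 20.3% of all genes tested (adjusted p = 0.000411, 0.000216 and 0.00589 in the same order). Ccl5, a T cell attractant, had 15.9 and 49.6 CPM at 0.03 nM 1 h, against 16.5 and 22.9 CPM in untreated cells and was not called (adjusted p = 0.723). Ccl7, a monocyte attractant, had 55 and 172 counts at 0.03 nM 1 h, against 36 and 44 counts in untreated cells and was not called (adjusted p = 0.206). Lost with 1 library left out were the calls on Ccl4 and Ccl3 without either 0.03 nM 2 h library (0.109 and 0.0876) and Ccl2 without either untreated library or either 0.03 nM 2 h library (0.225).

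Of 24 inflammatory cytokine genes tested, 5 rose and none fell (median 0.81; without the 0.03 nM 2 h group 4 of 24 were up). Tnf (chromosome 17, 35336336 to 35338941), the tumour necrosis factor gene, had 129.8 and 187 CPM at 0.03 nM 1 h, against 7.77 and 9.88 CPM in untreated cells, a 17.9-fold rise (log2 4.16 ± 0.15, SE; adjusted p = 4.19e-07). Il1b, which encodes the pyrogenic interleukin made as a precursor, had 71.1 and 142 CPM at 0.03 nM 1 h, against 7.5 and 10.1 CPM in untreated cells, rose 11.8-fold (adjusted p = 2.91e-05) and was higher in experiment 2. Il1a, its relative, had 2.19 and 4.38 CPM at 0.03 nM 1 h, against 0.119 and 0.482 CPM in untreated cells, a 10.8-fold rise that was 23.6-fold without untreated library 2. Il12b, the shared subunit of interleukins 12 and 23, rose 2.39-fold from a low level, with 1.16 and 1.32 CPM at 0.03 nM 1 h, against 0.50 and 0.53 CPM in untreated cells. Osm, an interleukin-6 family cytokine, rose 1.62-fold, with 6.19 and 8.15 CPM in treated, against 4.26 and 4.53 CPM in untreated cells. Il6, Ifnb1 and Il10 were not called. Il6 had 2 and 9 counts at 0.03 nM 1 h, against 0 and 1 counts in untreated cells (adjusted p = 0.349), which is too few to measure a change. Ifnb1, the interferon-beta gene, had 12 and 16 counts at 0.03 nM 1 h, against 4 and 6 counts in untreated cells (adjusted p = 0.426). Il10, the anti-inflammatory interleukin, had 5.3 and 9.73 CPM at 0.03 nM 1 h, against 4.0 and 5.5 CPM in untreated cells and was called by DESeq2 (adjusted p = 0.0274) but not by edgeR (adjusted p = 0.312). Dropping a library ended calls on Il1a without either 0.03 nM 2 h library (0.133), Il12b without treated library 2 or either untreated library (0.133) and Osm without treated library 2, either untreated library or either 10 nM 1 h library (0.499). Beyond single libraries, calls were lost on Il12b under limma-voom (adjusted p = 0.159).

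**Figure D2:**
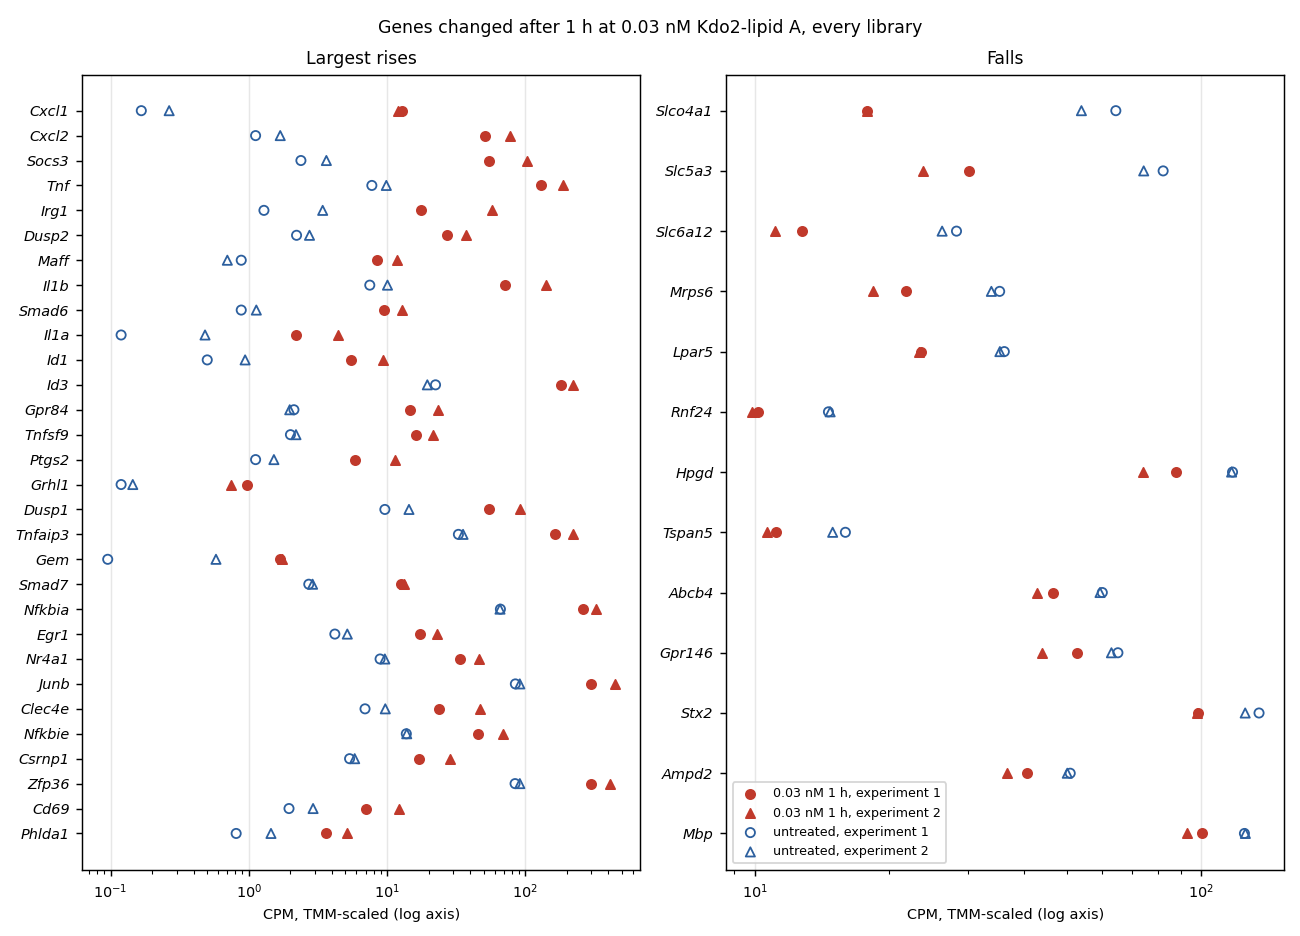
CPM on a log axis in each 0.03 nM 1 h library (filled red) and each untreated library (open blue), with circles for experiment 1 and triangles for experiment 2, for the 30 largest rises (left) and the 13 falls (right) among called genes with an average of at least 1 log2 CPM. In each of these 43 genes both treated libraries lie on one side of both untreated libraries, which the calls favour. Over all genes tested, both treated libraries lay above in 20.3% and below in 20.4%. The largest rises start from untreated levels as low as 0.167 CPM for Cxcl1.

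The lists of receptors with their adaptors and of the kinases below them gave 3 calls. The first list holds 11 genes: the TLR4 receptor complex, its adaptors and the related receptors Tlr1, Tlr2 and Tlr6. Of these, 1 rose in the main fit (9.09%, against 1.6% of all genes tested), where no gene of the TLR4 complex or its adaptors was called. The rise was in Tlr2, the receptor of bacterial lipoproteins. It had 314 and 387 CPM at 0.03 nM 1 h, against 153 and 151 CPM in untreated cells, a 2.3-fold rise (adjusted p = 4.86e-05). Tlr4 itself had 108 and 112 CPM at 0.03 nM 1 h, against 119 and 133 CPM in untreated cells, and its MD-2 partner gene Ly96 had 11.6 and 10.6 CPM in treated, against 12.1 and 11 CPM in untreated cells. Cd14, the co-receptor gene that hands over the ligand, had 611 and 682 CPM in treated, against 543 and 524 CPM in untreated cells, and the adaptor gene Myd88 had 119 and 143 CPM in treated, against 126 and 128 CPM in untreated cells. None of the 4 was called in the main fit (adjusted p = 0.823, 0.976, 0.211 and 0.981 in the order given). Of 20 kinases and ubiquitin ligases below the receptor, 2 rose (10.0%): Irak2, a kinase of the MyD88 complex, by 1.52-fold with 75.8 and 93.6 CPM in treated, against 53.9 and 57.4 CPM in untreated cells, and Map3k8 (Tpl2), which couples NF-kB signalling to the MAP kinase ERK, by 1.36-fold with 55.4 and 61.6 CPM in treated, against 42.2 and 44 CPM in untreated cells. The list medians were 0.04 and 0.04. Without the 0.03 nM 2 h group, 4 of 11 were up and 1 down in the receptor list and 5 of 20 were up and 1 down in the kinase list, where 3.68% of all genes were up. Beside Tlr1, Tlr2 and Tlr6, the 4 rises in the receptor list took in at least 1 gene of the TLR4 complex or its adaptors. With 1 library left out, calls were lost on Irak2 without treated library 2 or either untreated library (0.0914) and Map3k8 without treated library 2, either untreated library or any 10 nM library (0.716). Other fits ended the call on Map3k8 under limma on rlog values (adjusted p = 0.0559).

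Of 11 inhibitors of NF-kB and their partners, 8 rose, with a list median of 1.14 (without the 0.03 nM 2 h group 6 of 11 were up). Nfkbia, which encodes IkB-alpha, the main cytoplasmic inhibitor, had 262 and 325 CPM at 0.03 nM 1 h, against 66.1 and 65.7 CPM in untreated cells, a 4.45-fold rise (adjusted p = 9.29e-07). Tnfaip3 (A20), a ubiquitin-editing enzyme that stops signalling upstream of NF-kB, had 163 and 222 CPM at 0.03 nM 1 h, against 32.8 and 35.5 CPM in untreated cells, a 5.63-fold rise (adjusted p = 2.70e-06). Nfkbie had 45.8 and 69.6 CPM in treated, against 13.8 and 13.9 CPM in untreated cells (4.12-fold), and the nuclear IkB family members Nfkbiz, Bcl3 and Nfkbid rose 3.22-fold, 2.35-fold and 2.2-fold. The A20 partner genes Tnip3 and Tnip1 rose 1.68-fold and 1.32-fold. Of the 5 genes of NF-kB itself, 2 were called (median 0.51; without the 0.03 nM 2 h group 2 of 5 were up): Relb by 1.63-fold and Nfkb2 by 1.42-fold, the pair of the alternative pathway. Rel, named after its values were seen, had 31.8 and 43.8 CPM at 0.03 nM 1 h, against 16.9 and 19 CPM in untreated cells and was not called in the fit to all libraries (log2 1.08 ± 0.38, SE; adjusted p = 0.424). Calls were lost on Nfkbiz without either 0.03 nM 2 h library (0.0693), Tnip3 without either untreated library or either 0.03 nM 2 h library (0.145) and Tnip1 without any treated or untreated library or any 10 nM library (0.502). Also lost were the calls on Relb without treated library 2 or untreated library 1 (0.0895) and Nfkb2 without treated library 2, either untreated library, 0.03 nM 2 h library 2 or either 10 nM 1 h library (0.403). Of the remaining alternatives, the call was lost on Tnip1 under limma on rlog values (adjusted p = 0.0605).

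Immediate-early genes were raised in 14 of 25 cases, with a list median of 0.97 and no falls (without the 0.03 nM 2 h group 14 of 25 were up). Egr1, a zinc-finger factor driven by ERK signalling, had 17.3 and 22.8 CPM at 0.03 nM 1 h, against 4.19 and 5.16 CPM in untreated cells (4.27-fold, adjusted p = 1.27e-05). Nr4a1, an orphan nuclear receptor, had 33.5 and 46.2 CPM at 0.03 nM 1 h, against 8.91 and 9.64 CPM in untreated cells (4.27-fold, adjusted p = 2.22e-05). Of the AP-1 genes, Fos had 220.5 and 318 CPM in treated, against 68.5 and 94.8 CPM in untreated cells (3.28-fold) and Junb had 301 and 447 CPM in treated, against 84.8 and 91.3 CPM in untreated cells (4.22-fold), while Jun rose 1.29-fold, with 97 and 111 CPM in treated, against 78.2 and 82.9 CPM in untreated cells. Csrnp1, Gadd45b, Ier3 and Myc rose 4.02-fold, 2.78-fold, 2.5-fold and 2.1-fold. Plk3, Egr2, Btg2, Fosl2 and Ier2 were also called, at 2.02-fold, 1.82-fold, 1.63-fold, 1.6-fold and 1.58-fold, and were named after their values were seen. Atf3, a stress-induced repressor, had 225 and 229 CPM at 0.03 nM 1 h, against 189.7 and 188 CPM in untreated cells and was not called (adjusted p = 0.20). Egr3 had 87 and 118 counts at 0.03 nM 1 h, against 21 and 40 counts in untreated cells and was not called either (adjusted p = 0.128). Lost with 1 library left out were the calls on Junb and Csrnp1 without either 0.03 nM 2 h library (0.055 and 0.108), Plk3 and Fosl2 without treated library 2 or untreated library 1 (0.0981 and 0.0903) and Jun without any treated or untreated library or any 10 nM library (0.651). The fits lost too the calls on Egr2 without any treated or untreated library or either 0.03 nM 2 h library (0.233), Btg2 without treated library 2 or untreated library 2 (0.0996) and Ier2 without treated library 2, either untreated library, either 0.03 nM 2 h library or either 10 nM 2 h library (0.477). Further losses were of Jun without the block (adjusted p = 0.103), and of Ier2 without the block (adjusted p = 0.189).

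Of 29 other inducible transcription factors, 9 rose (median 0.21; without the 0.03 nM 2 h group 10 of 28 were up). Maff, a small MAF protein, had 8.48 and 11.8 CPM at 0.03 nM 1 h, against 0.881 and 0.699 CPM in untreated cells, a 12.7-fold rise (adjusted p = 3.76e-06). Cebpb, a factor of inflammatory and myeloid genes, had 52.9 and 76.5 CPM in treated, against 22.7 and 26 CPM in untreated cells (2.65-fold), and Irf1, an interferon regulatory factor, had 188 and 228 CPM in treated, against 99.5 and 101 CPM in untreated cells (2.08-fold). Klf10, a TGF-beta-inducible zinc-finger gene, rose 1.79-fold, Ets2 1.78-fold, Cebpd 1.62-fold, Bhlhe40 1.62-fold, Etv3 1.58-fold and Arid5a 1.53-fold. Cebpd overlaps 2310008H04Rik on the opposite strand over 319 exonic bases, so part of its counts may belong there. Grhl1, a grainyhead-like factor in no list, rose 6.33-fold from near zero, with 40 and 31 counts at 0.03 nM 1 h, against 5 and 6 counts in untreated cells. Dropping a library ended calls on Ets2, Bhlhe40 and Grhl1 without either untreated library (0.0702, 0.0981 and 0.134), Cebpb without either 0.03 nM 2 h library (0.162) and Cebpd without treated library 2, either untreated library, either 0.03 nM 2 h library or either 10 nM 1 h library (0.507). Likewise lost were the calls on Etv3 without treated library 2 or either untreated library (0.215) and Arid5a without treated library 2, either untreated library or any 10 nM library (0.59). Beyond single libraries, calls were lost on Cebpd under limma on rlog values (adjusted p = 0.0559), and on Arid5a under limma on rlog values (adjusted p = 0.058).

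Factors known to shorten the response were among the called rises. Socs3, an inhibitor of cytokine receptor signalling, had 54.6 and 104 CPM at 0.03 nM 1 h, against 2.38 and 3.64 CPM in untreated cells, a 25.9-fold rise (log2 4.69 ± 0.27, SE; adjusted p = 1.95e-05). Zfp36 (tristetraprolin), which destabilises Tnf and other AU-rich messenger RNAs, had 299 and 408 CPM at 0.03 nM 1 h, against 84.4 and 91.4 CPM in untreated cells (4.0-fold). Zc3h12a (regnase-1), a ribonuclease for inflammatory transcripts, rose 2.43-fold, with 79 and 94 CPM in treated, against 34.2 and 37.1 CPM in untreated cells. Cish and Zfp36l1 completed the 5 of 16 genes called in this list, at 1.91-fold and 1.55-fold. Socs1 had 0.723 and 2.23 CPM at 0.03 nM 1 h, against 1.57 and 1.25 CPM in untreated cells and was not called (adjusted p = 0.994); its fitted log2 fold change of 0.05 turned negative in 5 of the alternatives. The list median was 0.02, and without the 0.03 nM 2 h group 5 of 16 were up. With 1 library left out, calls were lost on Cish without treated library 2 or either untreated library (0.301) and Zfp36l1 without any treated or untreated library, either 0.03 nM 2 h library or either 10 nM 1 h library (0.441). Other fits ended the call on Zfp36l1 without the block (adjusted p = 0.0712), and on Cish under limma-voom (adjusted p = 0.18).

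MAP kinase phosphatases and other feedback inhibitors were called in 7 of 19 cases (median 0.48; without the 0.03 nM 2 h group 7 of 19 were up and 1 down). Dusp2 and Dusp1, which inactivate MAP kinases in the nucleus, led them: Dusp2 had 27 and 37.4 CPM at 0.03 nM 1 h, against 2.22 and 2.75 CPM in untreated cells (12.9-fold, adjusted p = 8.43e-07), and Dusp1 had 55 and 91.8 CPM in treated, against 9.65 and 14.4 CPM in untreated cells (6.06-fold, adjusted p = 6.60e-05). Dusp5 and Dusp6, specific for ERK, rose 3.27-fold and 1.86-fold. Spry2 and Errfi1, inhibitors of receptor tyrosine kinase signalling, rose 1.87-fold and 1.83-fold, and Rgs1, which shortens G protein signalling, rose 1.46-fold. Dusp4 had 620 and 691 counts at 0.03 nM 1 h, against 388 and 410 counts in untreated cells and missed the threshold (adjusted p = 0.0588). Calls were lost on Dusp1 without either 0.03 nM 2 h library (0.060), Dusp5 without untreated library 2 (0.0542) and Dusp6 without any treated or untreated library or either 10 nM 1 h library (0.298). The fits lost too the calls on Spry2 without treated library 1 or either untreated library (0.106) and Rgs1 without any treated or untreated library, either 0.03 nM 2 h library or either 10 nM 1 h library (0.618). Of the remaining alternatives, the call was lost on Rgs1 without the block (adjusted p = 0.479), under a minimum of 1 CPM in 2 libraries, under limma-voom (adjusted p = 0.0655) and under limma on rlog values (adjusted p = 0.0932).

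Of 21 BMP and TGF-beta pathway genes, 8 rose, with a list median of 0.15 (without the 0.03 nM 2 h group 10 of 21 were up). The BMP pathway signals through SMAD proteins to the ID genes, and the inhibitory SMADs feed back on it. Smad6, the BMP-selective inhibitory SMAD, had 9.52 and 12.8 CPM at 0.03 nM 1 h, against 0.881 and 1.13 CPM in untreated cells, an 11.1-fold rise (log2 3.47 ± 0.23, SE; adjusted p = 1.67e-05). Id1, an inhibitor of basic helix-loop-helix factors, had 5.45 and 9.34 CPM at 0.03 nM 1 h, against 0.50 and 0.94 CPM in untreated cells (10.2-fold, adjusted p = 1.84e-05). Its relative Id3 (chromosome 4, 135699737 to 135701307) reached far higher levels, with 181 and 223 CPM at 0.03 nM 1 h, against 22.4 and 19.6 CPM in untreated cells (9.6-fold, adjusted p = 4.19e-07). Per kilobase of exon, Id3 averaged 212 reads per kilobase of exon scaled to depth (RPKM) at 0.03 nM 1 h, against 22 RPKM in untreated cells. Smad7, the general inhibitory SMAD, had 12.6 and 13.3 CPM in treated, against 2.72 and 2.89 CPM in untreated cells (4.61-fold), and Id2 had 154 and 173 CPM in treated, against 47.5 and 45.5 CPM in untreated cells (3.51-fold). Skil, a SMAD co-repressor, rose 3.38-fold, the ligand gene Bmp2 1.7-fold and the repressor Tgif1 1.69-fold. The members called were inhibitors and targets of the pathway and 1 ligand. The signal-carrying SMAD genes Smad1, Smad2, Smad3, Smad4 and Smad5 and the receptor genes Bmpr1a, Bmpr2, Tgfbr1 and Tgfbr2 were not called, with log2 fold changes of -0.10 (Smad4) to 0.29 (Smad1). Lost with 1 library left out were the calls on Tgif1 without either untreated library (0.0712).

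Survival genes were called in 8 of 25 cases, all upward (median 0.33; without the 0.03 nM 2 h group 13 of 25 were up). Phlda1, a pleckstrin-homology protein linked to cell death and survival, rose 3.89-fold, with 3.64 and 5.15 CPM in treated, against 0.81 and 1.45 CPM in untreated cells. The serine/threonine kinase genes Pim1 and Pim3 rose 2.65-fold and 1.4-fold, the apoptosis inhibitor Birc3 1.84-fold, Cflar 1.78-fold and Traf1 1.65-fold. Bcl2a1a and Bcl2a1d, anti-apoptotic BCL2 relatives, rose 3.74-fold and 1.8-fold, but these near-identical copies may share reads and their split is uncertain. Dropping a library ended calls on Cflar and Bcl2a1d without treated library 2 or either untreated library (0.153 and 0.0842), Pim1 without either 0.03 nM 2 h library (0.0758) and Pim3 without any treated or untreated library or any 10 nM library (0.44). Also lost were the calls on Traf1 without treated library 2, either untreated library or either 10 nM 1 h library (0.394) and Bcl2a1a without treated library 2 or untreated library 1 (0.073). Beyond single libraries, calls were lost on Traf1 without the block (adjusted p = 0.406), and on Bcl2a1a under limma-voom (adjusted p = 0.0582).

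Among 20 co-stimulation and adhesion genes, 8 rose (median 0.49; without the 0.03 nM 2 h group 5 of 20 were up). Tnfsf9 (4-1BB ligand), a T cell co-stimulator, had 16.1 and 21.3 CPM at 0.03 nM 1 h, against 2.0 and 2.19 CPM in untreated cells, an 8.89-fold rise (adjusted p = 8.43e-07). Icosl, the ligand of ICOS, rose 2.43-fold, with 47.9 and 62.7 CPM in treated, against 22.4 and 23 CPM in untreated cells. The adhesion gene Icam1 had 213 and 283 CPM in treated, against 110.1 and 109.7 CPM in untreated cells (2.25-fold), Cd83 had 169 and 215 CPM in treated, against 86.4 and 89.7 CPM in untreated cells (2.17-fold) and Cd40 had 11.3 and 18.9 CPM in treated, against 6.74 and 7.26 CPM in untreated cells (2.12-fold). The fibronectin receptor subunit Itga5, the proteoglycan Sdc4 and the Notch ligand Jag1 rose 2.1-fold, 1.9-fold and 1.63-fold. Cd80 and Cd86, the classical co-stimulators, were not called (log2 0.27 ± 0.14 and 0.20 ± 0.07, SE). With 1 library left out, calls were lost on Icam1, Cd83, Itga5 and Sdc4 without either 0.03 nM 2 h library (0.0641, 0.0755, 0.079 and 0.10), Cd40 without treated library 2, either untreated library or either 0.03 nM 2 h library (0.24) and Jag1 without any treated or untreated library or either 10 nM 1 h library (0.306). Other fits ended the call on Cd40 without the block (adjusted p = 0.0653), and on Jag1 under limma-voom (adjusted p = 0.0737) and under limma on rlog values (adjusted p = 0.0588).

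Of 23 effector enzymes and secreted proteins, 6 rose, with a list median of 0.49. Without the 0.03 nM 2 h group, 1 of 23 was up and 1 down, where 3.68% of all genes were up. Counts this small tell nothing of the list. Irg1 (Acod1), which makes the antimicrobial metabolite itaconate, had 17.7 and 57 CPM at 0.03 nM 1 h, against 1.29 and 3.42 CPM in untreated cells, a 15.2-fold rise. It was higher in experiment 2 in both groups, and the rise was 8.47-fold without treated library 2. Ptgs2 (cyclooxygenase-2), of prostaglandin synthesis, had 5.83 and 11.4 CPM at 0.03 nM 1 h, against 1.12 and 1.52 CPM in untreated cells (6.45-fold). Marcksl1, the urokinase receptor Plaur, the mitochondrial superoxide dismutase Sod2 and the membrane protease Mmp14 rose 2.51-fold, 1.77-fold, 1.67-fold and 1.65-fold. Nos2, the inducible nitric oxide synthase, had 2 and 43 counts at 0.03 nM 1 h, against 6 and 4 counts in untreated cells, so treated library 2 alone stood out, and the gene was not called (adjusted p = 0.595). Saa3, an acute-phase gene named after its values were seen, had the same shape, with 248 and 1852 counts at 0.03 nM 1 h, against 282 and 328 counts in untreated cells (adjusted p = 0.691). Calls were lost on Irg1 without either untreated library or either 0.03 nM 2 h library (0.144), Ptgs2 without untreated library 1 or either 0.03 nM 2 h library (0.141) and Marcksl1 without either 0.03 nM 2 h library (0.0772). Likewise lost were the calls on Plaur without treated library 2, untreated library 2 or either 0.03 nM 2 h library (0.11), Sod2 without treated library 2, either untreated library or either 0.03 nM 2 h library (0.256) and Mmp14 without treated library 2, either untreated library, either 0.03 nM 2 h library or either 10 nM 1 h library (0.416). Of the remaining alternatives, the call was lost on Irg1 without the block (adjusted p = 0.0675), under no filter on low counts and under limma-voom (adjusted p = 0.0567), and on Mmp14 without the block (adjusted p = 0.609).

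Surface receptors moved both ways: 9 of 43 phagocyte and G protein-coupled receptors rose and 2 fell (median 0.25; without the 0.03 nM 2 h group 14 of 43 were up and 2 down). Gpr84, a receptor of medium-chain fatty acids, had 14.7 and 23.6 CPM at 0.03 nM 1 h, against 2.12 and 1.98 CPM in untreated cells, a 9.19-fold rise (adjusted p = 3.56e-06). Clec4e (Mincle), a C-type lectin for mycobacterial glycolipids, had 24 and 47 CPM in treated, against 6.93 and 9.71 CPM in untreated cells (4.19-fold). The adenosine receptors Adora2b and Adora2a, the chemerin-binding Ccrl2 and the prostaglandin E2 receptor Ptger4 rose 3.27-fold, 2.14-fold, 3.45-fold and 2.38-fold. The acid-sensing receptors Gpr132 and Gpr65 rose 1.86-fold and 1.6-fold and the scavenger receptor Msr1 1.31-fold. The lysophosphatidic acid receptor gene Lpar5 had 23.5 and 23.4 CPM at 0.03 nM 1 h, against 36.2 and 35.4 CPM in untreated cells and was 1.53-fold lower (adjusted p = 0.00497), and Gpr146 had 52.7 and 43.9 CPM at 0.03 nM 1 h, against 65 and 62.9 CPM in untreated cells and was 1.33-fold lower (adjusted p = 0.0424). Lost with 1 library left out were the calls on Clec4e and Ccrl2 without either 0.03 nM 2 h library (0.133 and 0.0785), Adora2a without treated library 2 or untreated library 2 (0.173) and Gpr65 without untreated library 2 (0.0574). Also lost were the calls on Msr1 without treated library 2, either untreated library or any 10 nM library (0.589), Lpar5 without any treated or untreated library (0.0994) and Gpr146 without any treated or untreated library or any 10 nM library (0.711). Further losses were of Gpr146 without the block (adjusted p = 0.183), Adora2a under limma-voom (adjusted p = 0.0698), and of Msr1 under limma on rlog values (adjusted p = 0.0584).

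**Figure D3:**
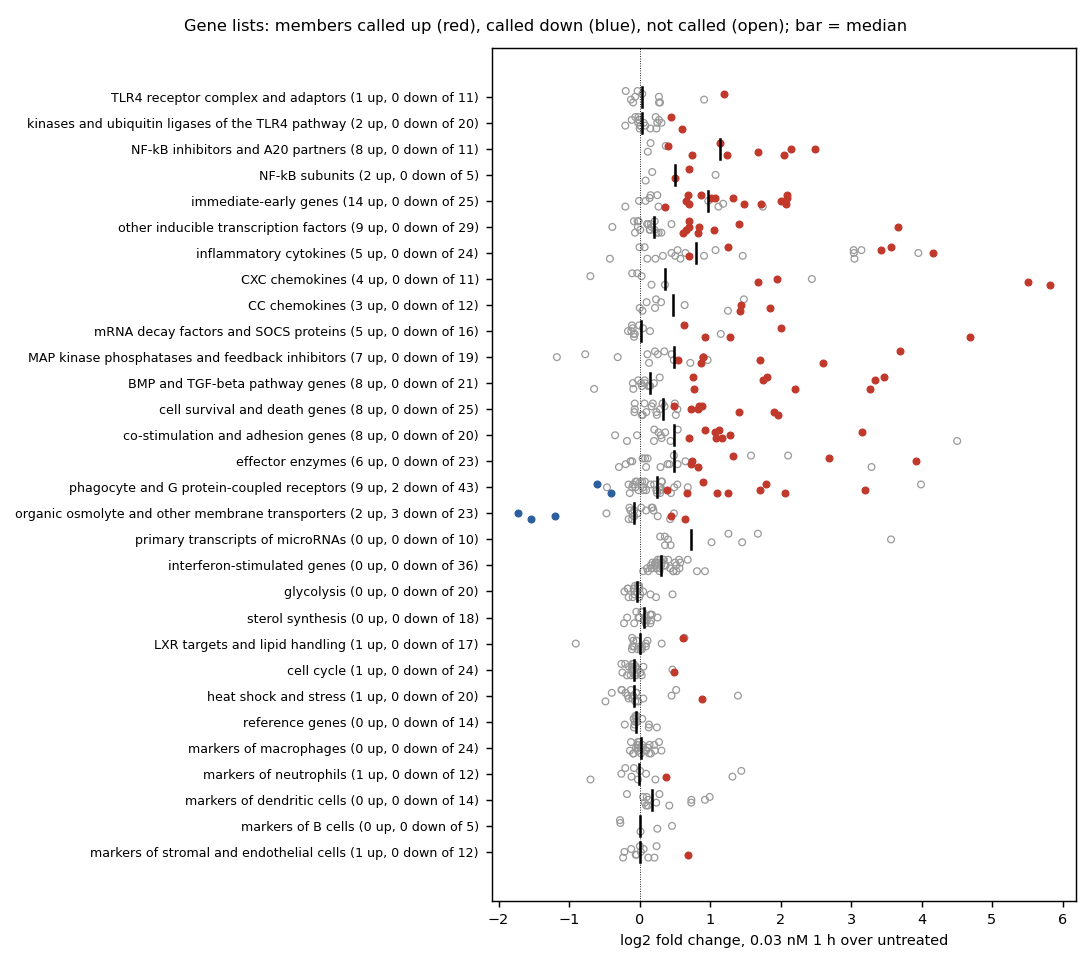
Log2 fold change of 0.03 nM 1 h over untreated for each tested member of the gene lists with at least 5 tested members, 1 row per list and 1 circle per gene, filled red where called up, filled blue where called down and open where not called; the black bar is the list's median. Called rises lie in many of the lists, among them the signalling, cytokine, feedback, survival, co-stimulation, effector and receptor lists. The 3 largest called falls lie among the transporters, and the 36 interferon-stimulated genes all lie right of 0 without a call.

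Transporters of organic solutes held the 3 largest called falls. Slco4a1 (chromosome 2, 180195683 to 180209557), an organic anion transporter, had 17.8 and 17.8 CPM at 0.03 nM 1 h, against 64.3 and 53.9 CPM in untreated cells and was 3.3-fold lower (log2 -1.72 ± 0.10, SE; adjusted p = 8.28e-06). Slc5a3, the sodium-coupled inositol transporter, had 30.2 and 23.9 CPM at 0.03 nM 1 h, against 82.1 and 74.3 CPM in untreated cells and was 2.91-fold lower (adjusted p = 7.45e-06). Slc6a12, the betaine transporter, had 12.8 and 11.1 CPM at 0.03 nM 1 h, against 28.3 and 26.3 CPM in untreated cells and was 2.29-fold lower (adjusted p = 0.000506). Inositol and betaine are osmolytes, and their transporters are known targets of the tonicity factor NFAT5. The taurine transporter Slc6a6, the aldose reductase Akr1b3 and Nfat5 itself, which belong to the same osmotic programme, were not called, with log2 fold changes of -0.10 ± 0.11, -0.11 ± 0.09 and -0.08 ± 0.18 (SE). The lowest fold change among the uncalled genes of this list was that of the amino acid transporter Slc38a2 (log2 -0.47, adjusted p = 0.107). It had 6746 and 6451 counts at 0.03 nM 1 h, against 9234 and 9081 counts in untreated cells. Of the 23 transport and osmotic genes tested, 3 fell and 2 rose, the glucose transporter Slc2a6 by 1.56-fold and the phosphate transporter Slc20a1 by 1.36-fold, and the list median was -0.08 (without the 0.03 nM 2 h group 4 of 23 were up and 4 down). Mrps6, a mitochondrial ribosomal protein gene that shares 145 exonic bases with Slc5a3 on the same strand, had 21.9 and 18.4 CPM in treated, against 35.3 and 33.9 CPM in untreated cells and was 1.72-fold lower, and the counts of this pair may share reads. Dropping a library ended calls on Slc2a6 without treated library 2 or untreated library 2 (0.15), Slc20a1 without any treated or untreated library or any 10 nM library (0.53) and Mrps6 without treated library 2 or either untreated library (0.147). Beyond single libraries, calls were lost on Slc20a1 without the block (adjusted p = 0.0533), under DESeq2-type size factors and under limma on rlog values (adjusted p = 0.0584).

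Beside these, 7 genes fell less than 1.5-fold. Rnf24, a RING-finger gene, had 10.1 and 9.85 CPM in treated, against 14.6 and 14.8 CPM in untreated cells (1.47-fold lower), but it overlaps Pank2 on the opposite strand over 701 exonic bases. Hpgd, which breaks down prostaglandins, had 87.9 and 74.1 CPM at 0.03 nM 1 h, against 117 and 117 CPM in untreated cells and was 1.45-fold lower (adjusted p = 0.00598). The tetraspanin gene Tspan5, the phospholipid exporter Abcb4, the SNARE gene Stx2, the AMP deaminase Ampd2 and the myelin basic protein gene Mbp were 1.42-fold, 1.34-fold, 1.32-fold, 1.3-fold and 1.3-fold lower. In all 7, both treated libraries lay below both untreated libraries, as for 20.4% of all genes tested. The calls favour this separation, so it is no separate support. With 1 library left out, calls were lost on Tspan5, Ampd2 and Mbp without any treated or untreated library or any 10 nM library (0.395, 0.676 and 0.42), Rnf24 and Abcb4 without any treated or untreated library or either 10 nM 1 h library (0.306 and 0.298) and Hpgd without treated library 2 or untreated library 2 (0.167). Likewise lost were the calls on Stx2 without any treated or untreated library, 10 nM 1 h library 2 or either 10 nM 2 h library (0.262). Other fits ended the call on Tspan5 without the block (adjusted p = 0.0526) and under DESeq2 (adjusted p = 0.0653). Angptl4, an inhibitor of lipoprotein lipase named after its values were seen, had 11.5 and 8.27 CPM at 0.03 nM 1 h, against 16.9 and 20.2 CPM in untreated cells and just missed the threshold (log2 -0.91 ± 0.20, SE; adjusted p = 0.0551).

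Outside the lists stood 101 of the called rises and 8 of the called falls. Except for Cd69 and Gem, the following were chosen after their values were seen, mainly for a call that held in each alternative fit. Pde4b, a cyclic AMP phosphodiesterase, had 74.1 and 92.5 CPM at 0.03 nM 1 h, against 23.2 and 22.3 CPM in untreated cells (3.66-fold). Trib1, a pseudokinase that directs C/EBP factors to degradation, had 36.1 and 53.1 CPM in treated, against 11.2 and 15.8 CPM in untreated cells (3.29-fold), and the small GTPase regulators Rasgef1b, Tagap and Ralgds rose 3.14-fold, 2.61-fold and 1.81-fold. Membrane traffic and cytoskeleton were represented by Rab20 (3.12-fold) and Cdc42ep2 (3.0-fold). Nlrp3, the inflammasome sensor, had 156 and 191 CPM at 0.03 nM 1 h, against 79.2 and 83 CPM in untreated cells, a 2.14-fold rise (adjusted p = 9.19e-05). Fzd1, a Wnt receptor, rose 2.68-fold, the stress gene Gadd45g 2.61-fold, the deadenylase Ccrn4l (nocturnin) 2.56-fold, the semaphorin Sema4c 2.46-fold and the BCL6 co-repressor Bcor 2.13-fold. Tnfaip2, Tgm2, Rnf19b, Zswim4, Pdgfb, Zfp263, D8Ertd82e and H2-K2 rose between 1.61-fold (Tnfaip2) and 2.03-fold (D8Ertd82e). The early lymphocyte activation marker Cd69 had 7.06 and 12.2 CPM at 0.03 nM 1 h, against 1.95 and 2.92 CPM in untreated cells (3.92-fold). Gem, a small GTPase, had 70 and 73 counts at 0.03 nM 1 h, against 4 and 24 counts in untreated cells, so its 5.1-fold rise was 16.7-fold without untreated library 2 and 3.08-fold without untreated library 1. H2-Q7 and H2-Q9 had identical counts in every library, so 2 of the 207 rises may be the same reads; with Ly6a they were the 3 rises whose libraries overlapped. Calls were lost on Cd69 without either 0.03 nM 2 h library (0.102) and Gem without either treated library, untreated library 1 or either 0.03 nM 2 h library (0.278). Of the remaining alternatives, the call was lost on Gem under no filter on low counts and under limma-voom (adjusted p = 0.115).

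By level per kilobase, the 2 most abundant called rises at 0.03 nM 1 h were not among the most induced ones. Ifi27l2a, an interferon-responsive gene, averaged 387 RPKM at 0.03 nM 1 h, against 239 RPKM in untreated cells, and the nuclear long noncoding RNA Neat1 averaged 279 RPKM at 0.03 nM 1 h, against 162 RPKM in untreated cells. Id3, Junb and Zfp36 came next, followed by Gp49a and Nfkbia. Of these, Id3, Junb, Zfp36 and Nfkbia were among the 29 rises of at least 4-fold. Tnf averaged 97.9 RPKM at 0.03 nM 1 h, against 5.45 RPKM in untreated cells, while Cxcl1, the gene with the largest fold change, averaged 13 RPKM at 0.03 nM 1 h, against 0.228 RPKM in untreated cells. Lost with 1 library left out were the calls on Neat1 without untreated library 1 (0.0515). Further losses were of Ifi27l2a without the block (adjusted p = 0.293).

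The size of the response differed between the 2 experiments. Of the 207 called rises, 172 (83.1%) were larger in experiment 2, with a median log2 difference of 0.76 in experiment 1 and 0.92 in experiment 2, while over all genes tested 54.2% differed more in experiment 2. The interferon-stimulated genes also differed in size between the experiments. None of the 36 tested was called by edgeR, with 13 at an unadjusted p below 0.05 (8.72% of all genes were), 1 called by DESeq2 (1.65% of the 17120 genes entered) and 32 in the fit to the 4 libraries alone (9.29% of all genes). All 36 had a fitted difference above 0, as had 49.5% of all genes, with a list median of 0.31. The median was 0.09 in experiment 1, where 28 of 36 were higher after treatment, and 0.49 in experiment 2, where 36 of 36 were, against 51.2% and 47.8% of all genes in experiments 1 and 2. Their levels summed to 2949 and 5649 CPM at 0.03 nM 1 h in experiments 1 and 2, against 2793 and 3953 CPM in untreated cells. Without treated library 1, 19 of the 36 were called, against 1.94% of all genes, and the median was 0.58; without treated library 2, none was called and the median was -0.0087. Ifit1, which binds foreign RNA, had 50.9 and 114 CPM at 0.03 nM 1 h, against 56 and 75.5 CPM in untreated cells (log2 difference -0.14 in experiment 1 and 0.60 in experiment 2), and Isg15, a ubiquitin-like modifier, had 23.8 and 66.9 CPM in treated, against 24.2 and 35.6 CPM in untreated cells (-0.03 in experiment 1 and 0.91 in experiment 2). In untreated cells too the summed level was higher in experiment 2.

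**Figure D4:**
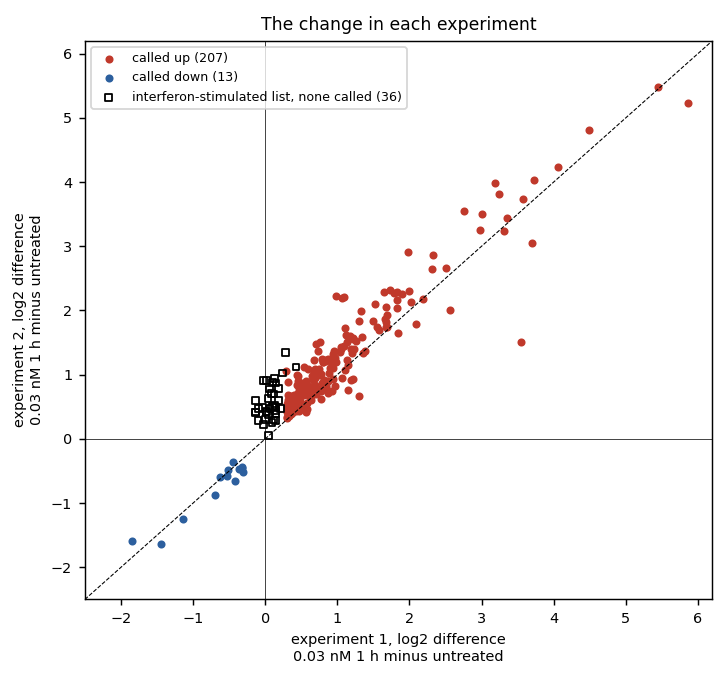
Log2 difference between 0.03 nM 1 h and untreated in experiment 1 (horizontal axis) and experiment 2 (vertical axis) for the called rises (red), the called falls (blue) and the 36 interferon-stimulated genes (open squares), with the line of equal difference dashed. Most called rises lie above the line, and the interferon-stimulated genes spread upward along the vertical axis with small differences in experiment 1.

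Marker genes of other cell types gave 2 calls. Csf3r, the receptor of granulocyte colony-stimulating factor, listed for neutrophils, had 86.1 and 98 CPM at 0.03 nM 1 h, against 69.4 and 72.5 CPM in untreated cells (1.3-fold). The whole neutrophil list, 1 of 12 called, summed to 115 and 124 CPM at 0.03 nM 1 h, against 100.4 and 96.2 CPM in untreated cells, and most of that sum was Csf3r itself. Among the granule protein genes of the list, Mpo had 33 and 60 counts at 0.03 nM 1 h, against 15 and 22 in untreated cells, and Prtn3 had 17 and 16 counts at 0.03 nM 1 h, against 6 and 6 in untreated cells. Neither was called (adjusted p = 0.273 and 0.416). Both treated libraries lay above both untreated libraries for these genes, as for 20.3% of all genes tested. Elane had 9 and 10 counts at 0.03 nM 1 h, against 8 and 11 in untreated cells, and Camp had 16 and 5 counts at 0.03 nM 1 h, against 10 and 26 in untreated cells. Of the 12 listed, 6 had a fitted difference above 0, and the list median was -0.0084. Kdr, a receptor of vascular endothelial growth factor, had 5.74 and 9.03 CPM at 0.03 nM 1 h, against 3.62 and 5.52 CPM in untreated cells (1.61-fold), beside a stromal and endothelial list of 12 tested genes that summed to 107 and 135 CPM at 0.03 nM 1 h, against 99.5 and 136 CPM in untreated cells, higher in experiment 2 in both groups. None of the 14 dendritic cell, 5 B cell, 2 T and NK cell, 1 erythroid and 2 mast cell and basophil markers tested was called. The last pair were Gata2, with 12 and 17 counts at 0.03 nM 1 h, against 9 and 5 in untreated cells, and Mcpt8, with 9 and 16 counts at 0.03 nM 1 h, against 4 and 6 in untreated cells (adjusted p = 0.643 and 0.821). The part of other cells in the results was not tested. Dropping a library ended calls on Csf3r and Kdr without any treated or untreated library or any 10 nM library (0.55 and 0.55). Beyond single libraries, calls were lost on Kdr without the block (adjusted p = 0.637) and under limma-voom (adjusted p = 0.0554).

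Metabolic, cell cycle, stress and reference lists had 0 or 1 called gene each, at most 5.88% of a list, against 1.7% of all genes tested, and counts this small tell nothing of a list. None of 20 glycolysis genes, 18 sterol synthesis genes, 14 reference genes and 24 macrophage markers was called, with list medians of -0.03, 0.06, -0.05 and 0.01. Without the 0.03 nM 2 h group, 2 of 20 were up and 1 down, 1 of 18 was up, 2 of 14 were up and 1 down and 2 of 24 were up and 1 down, against 4.67% of all genes called. Gapdh and Actb had log2 fold changes of -0.08 ± 0.08 and 0.13 ± 0.07 (SE), and the macrophage markers Csf1r and Emr1 of -0.03 ± 0.06 and -0.09 ± 0.07. One gene was called among 17 LXR targets (Nr1h3, the LXR-alpha gene, 1.54-fold), 1 of 24 cell cycle genes (Ccnd1, cyclin D1, 1.41-fold) and 1 of 20 heat shock and stress genes (Cdkn1a, the p21 inhibitor, 1.85-fold). None of the 10 primary microRNA transcripts tested was called; the row named Mir146 had 28 and 26 counts at 0.03 nM 1 h, against 14 and 6 counts in untreated cells (adjusted p = 0.197). Mir21, whose row overlaps Vmp1, had 40 and 66 counts at 0.03 nM 1 h, against 19 and 25 counts in untreated cells (adjusted p = 0.0842). With 1 library left out, calls were lost on Nr1h3 without treated library 2 or untreated library 1 (0.0902), Ccnd1 without treated library 2, either untreated library or either 10 nM 1 h library (0.381) and Cdkn1a without either untreated library or either 0.03 nM 2 h library (0.163). Other fits ended the call on Nr1h3 without the block (adjusted p = 0.0987), and on Ccnd1 without the block (adjusted p = 0.571).

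The 10 nM group at the same 1 h places these genes by dose. Between the doses, 4736 genes differed (36.7%; 18.1% higher at 0.03 nM and 18.6% lower). Both comparisons use the 0.03 nM 1 h libraries, so the counts that follow describe the genes and test nothing. Of the 207 rises, 172 were lower at 0.03 nM than at 10 nM, 12 did not differ past the threshold and 23 were higher at 0.03 nM. The gap was wide for the cytokines: Tnf had 129.8 and 187 CPM at 0.03 nM 1 h, against 3834 and 3662 CPM at 10 nM 1 h, and Cxcl1 had 12.8 and 12 CPM at 0.03 nM, against 832 and 698 CPM at 10 nM. Nfkbia, with 262 and 325 CPM at 0.03 nM and 1609 and 1595 CPM at 10 nM, differed by -2.45 ± 0.10 on the log2 scale (SE), and Id3, with 181 and 223 CPM at 0.03 nM and 329 and 322 CPM at 10 nM, by -0.69 ± 0.11. Scaling by library totals in place of TMM gave a median log2 difference between the doses of 0.37 over all genes, against 0.013 with TMM, raised the count to 7993 genes and moved the split of the 207 rises to 161 lower, 13 not differing and 33 higher at 0.03 nM. The count of 4736 was 3074 without treated library 1, and 3040 and 3067 without 10 nM 1 h libraries 1 and 2.

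Among the 23 genes higher at 0.03 nM, Smad6, an inhibitor of BMP signalling, had the largest difference between the doses. Of the 21 BMP and TGF-beta genes, 5 were higher at 0.03 nM (23.8%, against 18.1% of all genes). From untreated through 0.03 nM to 10 nM at 1 h, Smad6 had 0.881 and 1.13, then 9.52 and 12.8, then 2.54 and 2.14 CPM, and the difference between the doses was 2.25 ± 0.21 on the log2 scale (SE; adjusted p = 1.07e-05). In the same order of groups, Smad7 had 2.72 and 2.89, 12.6 and 13.3 and 6.65 and 6.24 CPM (difference 1.00 ± 0.13, adjusted p = 0.000112). In every library both genes lay above the untreated level at both doses and highest at the lower one. Dusp6 had 10.4 and 12, 19 and 22.6 and 6.22 and 7.14 CPM (difference 1.64 ± 0.17), and Neat1 had 461 and 567, 844 and 926 and 233 and 286 CPM (1.78 ± 0.10), so that each was lower at 10 nM than in untreated cells in every library. Enc1, an actin-binding protein gene, had 54.1 and 55.7, 123 and 106 and 54.2 and 55.6 CPM (1.06 ± 0.13) and Klf10 had 34 and 33.7, 61.3 and 59.9 and 26.3 and 28 CPM (1.16 ± 0.08), both back near or under the untreated level at 10 nM. The differences between doses for Smad6, Smad7, Dusp6, Neat1, Enc1 and Klf10 were called in every alternative fit. For Id1 (0.59 ± 0.18) and Fos (0.59 ± 0.09) they were lost without the block (adjusted p up to 0.311 and 0.106 over the alternatives). That of Id1 was also lost by DESeq2 and without treated library 2 or either 10 nM 1 h library. Enc1, Neat1 and the other genes of this set outside the lists were named after their values were seen.

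**Figure D5:**
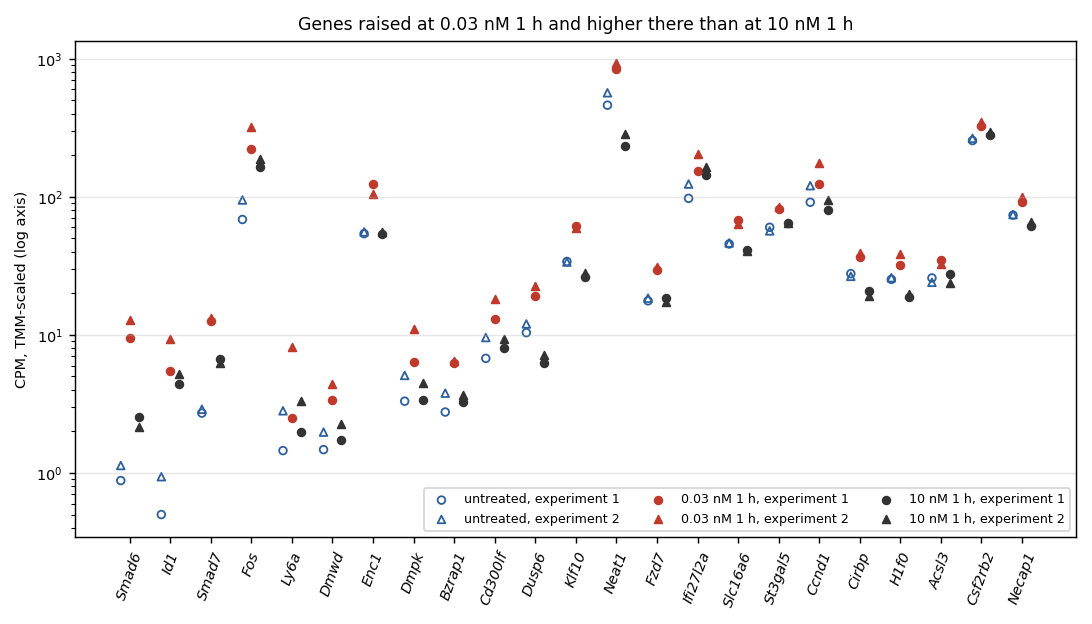
CPM on a log axis in each library of untreated cells (open blue), 0.03 nM 1 h (red) and 10 nM 1 h (black), from the lowest to the highest dose within each gene, with circles for experiment 1 and triangles for experiment 2, for the 23 called rises that were higher at 0.03 nM than at 10 nM. Smad6 and Smad7 remain above the untreated level at 10 nM, while Dusp6 and Neat1 lie below it.

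The falls can be placed by dose in the same way. They were picked for low values in the 0.03 nM 1 h libraries, which favours lower values there than at 10 nM, so these counts test nothing. Of the 13, 9 were lower at 0.03 nM than at 10 nM, 2 did not differ and 2 were higher at 0.03 nM. Over all genes tested, 18.6% were lower and 18.1% higher at 0.03 nM. Slco4a1 had 64.3 and 53.9 CPM in untreated cells, 17.8 and 17.8 CPM at 0.03 nM 1 h and 192 and 152 CPM at 10 nM 1 h, below the untreated level at the low dose and above it at the high one in every library (difference between doses -3.26 ± 0.11, SE; adjusted p = 5.57e-09). Slc5a3 had 82.1 and 74.3, 30.2 and 23.9 and 97.3 and 73.3 CPM in the same order, and Slc6a12 had 28.3 and 26.3, 12.8 and 11.1 and 29.8 and 26.2 CPM, near the untreated level at 10 nM. Gpr146, by contrast, had 65 and 62.9, 52.7 and 43.9 and 15.2 and 12.2 CPM, and Lpar5 had 36.2 and 35.4, 23.5 and 23.4 and 14.8 and 14.5 CPM, lower still at 10 nM. These 5 differences between doses were called in every alternative fit. With library totals, 6 of the 13 falls were lower at 0.03 nM, 3 did not differ and 4 were higher.

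Between 1 h and 2 h at 0.03 nM, 721 genes differed (5.58%; 1.8% higher at 1 h and 3.78% lower). These calls share the 0.03 nM 1 h libraries with the calls against untreated cells, so a rise picked for its height in those libraries is favoured to look higher there than at 2 h too, and the counts that follow test nothing. Of the 207 rises, 112 were lower at 1 h than at 2 h, 82 did not differ past the threshold and 13 were higher at 1 h. Lower at 1 h were Irg1, with 17.7 and 57 CPM at 1 h, against 305 and 353 CPM at 2 h, Clec4e, with 24 and 47 CPM at 1 h, against 143 and 149 CPM at 2 h, and Gpr84, with 14.7 and 23.6 CPM at 1 h, against 79.3 and 92.2 CPM at 2 h. Not called between the times were Tnfsf9, with 16.1 and 21.3 CPM at 1 h, against 17.7 and 19.8 CPM at 2 h (difference -0.01 ± 0.11, SE), and Dusp2, with 27 and 37.4 CPM at 1 h, against 31.8 and 36.3 CPM at 2 h (-0.09 ± 0.13). The differences of Irg1 and Clec4e were lost without 0.03 nM 2 h library 2, and that of Irg1 also in the fit to the 4 libraries. Higher at 1 h were Smad7, with 12.6 and 13.3 CPM at 1 h, against 4.65 and 5.09 CPM at 2 h (difference 1.41 ± 0.13, adjusted p = 0.000135), and Egr1, with 17.3 and 22.8 CPM at 1 h, against 7.47 and 8.61 CPM at 2 h (1.31 ± 0.13, adjusted p = 0.000188). Of the 13 falls, 10 did not differ between the times, Gpr146 and Lpar5 were higher at 1 h, and Rnf24 was lower at 1 h. The transporter genes were not called between the times, with Slco4a1 at 17.8 and 17.8 CPM at 1 h, against 19 and 15.1 CPM at 2 h, and Slc6a12 at 12.8 and 11.1 CPM at 1 h, against 12 and 13.7 CPM at 2 h. The count of 721 was 386 in a fit to the 4 libraries compared, 249 and 407 without treated libraries 1 and 2, and 3991 and 1178 without 0.03 nM 2 h libraries 1 and 2. The 2 libraries at 0.03 nM 2 h differed more from each other than those of any other group (SD of the log2 difference 0.292, against 0.223 at 0.03 nM 1 h and 0.178 in untreated cells). Across 9668 genes, which are not independent replicates, the difference between the 0.03 nM 2 h libraries correlated with the length of the gene model (Spearman's rho -0.642, experiment 2 minus experiment 1, against -0.0193 to 0.327 in the other groups). Its part in the calls between 1 h and 2 h, and in the spread that all comparisons share, was not tested.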

How the data were processed

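Each of the 5 groups had 2 libraries of polyadenylated RNA, prepared with a strand-specific kit (NEBNext Ultra Directional), per the labels' protocols. Tools listed in the submitters' processing notes, with no role given, are TopHat2 2.0.11, featureCounts 1.4.5-p1, DESeq2 and the build mm9. The deposited counts are whole reads per gene model, per the file headers. The authors' second table holds rlog values on a log2 scale for the same genes and was used in 1 alternative. Whether counting used strand is not stated, so reads of oppositely oriented genes that overlap may be mixed.

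The 10 columns of counts were fitted together in edgeR 4.0.16 (R 4.3.3): filterByExpr on the 5 groups (12918 genes), TMM scaling, and a robust quasi-likelihood fit with the experiment number as a block, which leaves 4 residual degrees of freedom. Adjusted p-values are Benjamini-Hochberg over all genes tested, called below 0.05. CPM are TMM-scaled. The experiment number comes from the labels and pairs the libraries. Deviations from group means, over 9668 genes, correlated at 0.481 between 0.03 nM 1 h and untreated libraries and at -0.16 to 0.481 over the 10 pairs of groups (7 above 0.1).

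The groups, gene lists, motifs and tests were chosen with earlier results of these data known, so lists are described by counts and medians and not tested. Named genes were the 30 largest rises and up to 15 largest falls among called genes (average log2 CPM of at least 1, sign shared by both experiments), up to 8 called members of each list by smallest p, and a fixed panel. Uncalled list members outside the panel, and others where the text says so, were named after their values were seen. Promoters are RefSeq's on GRCm38.p6; 161 of 207 called rises and 12 of 13 called falls had an entry. On simulated data for 0.03 nM 1 h against untreated (12746 genes), the fit recovered 74.6% of 1.5-fold, 97% of 2-fold and 100% of 4-fold changes, with 12 false calls. The genes changed there had an average log2 CPM of at least 1, and all groups got the same shift between experiments. Deviations from group means in the real libraries correlated at -0.16 to 0.481 between groups, so these shares need not hold for them. Alternatives were other scalings and filters, DESeq2 1.42.0, limma 3.58.1, no block, the 2 groups alone and leaving out each library.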

Additional observations from a re-analysis of the deposited data

Results flagged for a closer look

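Between 1 h and 2 h at 0.03 nM, 14 of the genes called against untreated cells differed in the direction of a return toward the untreated level, by the edgeR test of the difference itself. They were picked on the same 0.03 nM 1 h libraries that enter this test, which favours a difference in that direction. For 13 rises, the log2 difference of 0.03 nM 1 h minus 0.03 nM 2 h was 1.41 for Smad7, 1.31 for Egr1, 1.05 for Nr4a1, 0.905 for Enc1, 0.791 for Fos, 0.76 for Zfp36, 0.659 for Klf10, 0.512 for Ier3, 0.473 for Btg2, 0.46 for Fosl2, 0.448 for Bmp2, 0.359 for Slc16a6 and 0.343 for Acsl3. For the fall in Rnf24 the difference was -0.693. The differences of Smad7, Egr1, Enc1, Klf10 and Rnf24 were called in every alternative fit; those of Acsl3 and Slc16a6 were lost in 13 and 9 of the 19. Lost without 0.03 nM 2 h library 2 was Nr4a1 (adjusted p = 0.186), without either 0.03 nM 2 h library Zfp36 (up to 0.154), and without the block Fos (0.148). Without 0.03 nM 1 h library 2, and also in the 4 libraries alone, the calls on Ier3 (up to 0.12), Btg2 (0.179), Fosl2 (0.184) and Bmp2 (0.167) were lost, that on Btg2 also without 0.03 nM 2 h library 2 and that on Bmp2 also without 0.03 nM 1 h library 1. Slc16a6 shares 1598 exonic bases with a gene on the opposite strand, and Acsl3 shares 419 with Utp14b on the same strand.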

How the results depend on the processing

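Against untreated cells, 220 genes were called (207 up, 13 down). The fit to the 2 groups alone called 1159 (806 up, 353 down), and the fit without the 0.03 nM 2 h group, chosen after seeing the data, 599 (472 up, 127 down). Without the low-count filter 20 falls were called, and by DESeq2 22. The other scalings, filters and tools gave 196 to 282 calls. Without the replicate block 198 genes were called, 187 of them among the 220. Leaving out 1 library at a time gave 96 to 596 calls, of which 93 to 462 up and 3 to 140 down. Between the doses at 1 h, 4736 genes became 7993 with library totals and 3040 to 6409 with 1 library left out. Between 1 h and 2 h, 721 became 386 in the 4 libraries alone and 249 to 3991 with 1 library left out. Signs were followed for the 220 called genes and the other genes named by rule, 237 in all, and not for the remaining genes. Among those followed, signs turned only for genes that were not called. Without treated library 2, the log2 fold change was -0.113 for Ccl5, -0.298 for Ifit1, -0.13 for Isg15, -0.0585 for Myd88, -1.08 for Nos2 and -0.962 for Socs1, against 1.17, 0.738, 0.998, 0.128, 2.9 and 0.65 without treated library 1. Socs1 was also negative at -0.03505 in the 2 groups alone, -0.05545 by limma-voom, -0.0333 by limma on rlog values and -0.232 without untreated library 2, and Myd88 was -0.03308 without the last. The causes were not tested. For genes with few counts in these libraries, such as Il6, a change is poorly measured.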
